A study of Mus musculus with 9 samples.

Results

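High glucose and advanced glycation end products (AGEs, proteins modified by sugars) were each compared with control in cultured mouse podocytes, and the genes that lay on the same side of control under both were described. The cells were the wild-type podocyte line labelled MCP5, in 3 groups of 3 libraries: control, labelled blank, high glucose at 50 mmol/L, and AGEs at 400 µg/mL. All 9 libraries of the series were used, the 6 treated libraries against the 3 control libraries with equal weight for each treatment. Of 17680 genes tested, 9 were called in each treatment in the same direction, and 587 met a wider rule given below. The same 3 control libraries served both treatments, so a gene that happened to be high or low in them is pushed the same way in both comparisons, and the number of genes in common is a description. How long the cells were treated, the glucose of the control medium, and any osmotic or carrier-protein control were not given in the sources used here. The titles number the libraries without stating separate cultures, so p-values reflect only the spread between libraries, which may be technical.

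Podocytes wrap the capillaries of the glomerulus and hold back protein from the urine, and their injury is a known feature of diabetic kidney disease. High glucose acts on cells through their metabolism, including the glucose sensor MondoA, which drives Txnip. AGEs act at the cell surface, through receptors such as RAGE (encoded by Ager) that signal to the transcription factor NF-kB. Both are also known as sources of oxidant stress, to which cells answer through the transcription factor NRF2 and its antioxidant target genes.

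Averaged over both treatments, 3574 genes were called against control (20.2% of the genes tested), 1717 higher (9.71%) and 1857 lower (10.5%). A call means an adjusted p under 0.05 in edgeR's quasi-likelihood test with Benjamini-Hochberg adjustment over all genes tested. On its own, high glucose gave 6946 calls (39.3%), with 19.6% of the genes tested higher and 19.7% lower. AGEs gave 15 (0.0848%), with 0.0509% of the genes tested higher and 0.0339% lower, and 2190 genes (12.4%) had an unadjusted p under 0.05 for AGEs, against 47.2% for high glucose. Most calls of the average therefore rested on 1 treatment. Of the 3574 genes, 2706 (75.7%) had an unadjusted p under 0.05 in high glucose alone and 27 (0.755%) in AGEs alone. Both treatments passed that p in opposite directions for 141 genes (3.95%) and in the same direction for 700 (19.6%). Leaving out control library 1 or control library 3 lowered the count of the average to 1988 or 2224.

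Txnip, which encodes a glucose-induced inhibitor of thioredoxin, was called on average although its AGEs libraries lay on the other side of control. It measured 7.52, 7.26 and 11.3 CPM (a level relative to library size, with the edgeR factors) in control, 165, 156 and 157 under high glucose, and 5.44, 6.62 and 4.17 with AGEs. The average was called higher (log2 fold change 1.76 ± 0.18 SE, adjusted p = 0.000419), although every AGEs library lay below every control library. Ddit3, the stress transcription factor CHOP, was called lower on average (-2.56 ± 0.07) through high glucose alone (-5.14 ± 0.11), while the AGEs value was 0.02 ± 0.09. When the 6 treated libraries were instead fitted as 1 group, which counts the gap between the treatments as noise, 1 gene was called, Gsta4.

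The strict class held 9 genes called in each treatment in the same direction (0.0509% of the genes tested), 5 higher (0.0283%) and 4 lower (0.0226%). The higher genes were Gsta4, Nqo1, Pgd, Suclg2 and Nid1, and the lower genes were Mt1, Mt2, Cd2bp2 and Zfp784. DESeq2, with its own spread estimate, called 137 genes by the same rule and 325 genes for AGEs. Leaving out 1 library gave from 7 genes (without control library 1 or high glucose library 2) to 14 (without AGEs library 1).

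Gsta4 (chr9:78182774-78209349, plus strand, GRCm38) encodes a glutathione transferase that detoxifies lipid aldehydes such as 4-hydroxynonenal. Its libraries read 12.8, 14.2 and 13.0 CPM in control, 63.2, 50.7 and 46.5 under high glucose, and 60.8, 62.9 and 91.3 with AGEs. All 6 treated libraries lay above the highest control, and AGEs library 3 was the highest. The log2 fold change was 2.002 ± 0.177 in high glucose (adjusted p = 3.25e-05) and 2.42 ± 0.18 with AGEs (adjusted p = 0.0015). The difference between the treatments, 0.42 ± 0.17, did not pass (adjusted p = 0.0761).

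Nqo1 (chr8:107388225-107403206, minus strand) encodes a quinone reductase that is a classical NRF2 target. It measured 27.97, 25.02 and 25.11 CPM in control, 54.6, 53.9 and 40.1 under high glucose, and 54.83, 53.01 and 57.4 with AGEs. It rose by 0.93 ± 0.12 on the log2 scale in high glucose (adjusted p = 0.000313) and by 1.08 ± 0.12 with AGEs (adjusted p = 0.0148). The AGEs call was lost when any 1 of the 3 control libraries was left out, with adjusted p up to 0.0758 over all alternatives.

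Pgd (chr4:149149991-149166707, minus strand) encodes 6-phosphogluconate dehydrogenase, an NADPH-producing enzyme of the pentose phosphate pathway. Control libraries gave 232, 222 and 247 CPM, high glucose libraries 400, 405 and 358, and AGEs libraries 336, 355 and 400. It rose by 0.73 ± 0.09 in high glucose and by 0.64 ± 0.09 with AGEs (adjusted p = 0.0395), a call lost when any 1 control library, high glucose library 1 or 2, or AGEs library 2 or 3 was left out. Suclg2 (chr6:95473009-95718800, minus strand), a subunit of the GTP-forming succinyl-CoA ligase of the citric acid cycle, read 55.7, 59.8 and 48.4 CPM in control, 97.1, 86.5 and 83.0 under high glucose, and 97.7, 99.6 and 109 with AGEs. Its log2 fold changes were 0.70 ± 0.10 and 0.90 ± 0.10 (AGEs adjusted p = 0.0128, lost without control library 1).

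Nid1 (chr13:13437551-13512269, plus strand) encodes nidogen, which links laminin to collagen IV in basement membranes. It stood at 4.35, 4.68 and 5.33 CPM in control, 9.591, 8.689 and 10.98 under high glucose, and 11, 10.55 and 10.68 with AGEs, so that the AGEs libraries were the closest together. The rise was 1.03 ± 0.14 in high glucose and 1.17 ± 0.14 with AGEs (adjusted p = 0.0161). Leaving out control library 1 or 2, or AGEs library 1 or 2, ended the AGEs call. For Nqo1, Pgd, Suclg2 and Nid1 the difference between the treatments did not pass, with log2 differences of 0.15 ± 0.12, -0.09 ± 0.09, 0.20 ± 0.10 and 0.14 ± 0.13.

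**Figure D1:**
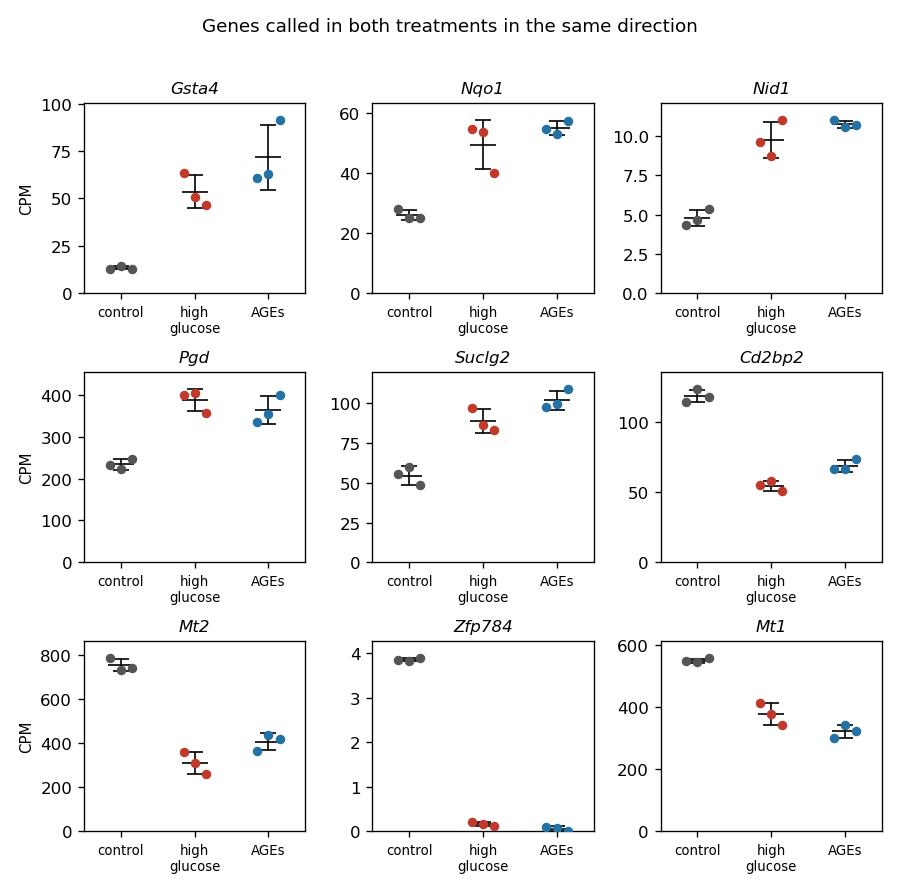
Level in CPM (vertical axis, from 0) of the 9 genes called in both treatments in the same direction, by group (horizontal axis). Points are libraries, the bar is the mean and the whisker the SD over 3 libraries. The 5 higher genes come first, and in every panel the 6 treated libraries lie on 1 side of the 3 control libraries.

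Among the lower genes were both widely expressed metallothioneins, Mt1 and Mt2, small proteins that bind zinc and copper. Mt2 (chr8:94172664-94173568, plus strand) read 784, 733 and 741 CPM in control, 360, 311 and 260 under high glucose, and 362, 438 and 418 with AGEs. It fell by 1.28 on the log2 scale (SE 0.12, adjusted p = 4.06e-05) in high glucose and fell by 0.89 (SE 0.12, adjusted p = 0.0374) with AGEs, and the fall was larger in high glucose (log2 difference 0.39 ± 0.12, adjusted p = 0.0249). Mt1 (chr8:94179082-94180327, plus strand) read 548, 547 and 558 CPM in control, 414, 380 and 342 under high glucose, and 302, 344 and 326 with AGEs. It fell by 0.54 (SE 0.08) in high glucose and by 0.77 (SE 0.08, adjusted p = 0.0104) with AGEs.

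The control libraries of Mt1 lay close together and well above all treated libraries. The AGEs call of Mt2 was lost when any 1 control library, any 1 AGEs library or high glucose library 2 was left out. That of Mt1 was lost without control library 1. Gm45774, a gene on the opposite strand that overlaps Mt2, held 25209 counts in all against 293510 for Mt2, and its reads cannot be told apart from those of Mt2 without strand information.

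Metallothionein genes are known to be driven by the zinc sensor MTF1 through metal response elements in their promoters. To show where such letters lie in this pair, the 250 bases before each RefSeq start (GRCm38.p6) follow, 5′ to 3′ along the gene's strand. Capitals mark matches, on either strand, to the element's core, TGCACNC or TGCGCNC. The windows are chr8:94178839-94179088 for Mt1 and chr8:94172368-94172617 for Mt2.
Mt1: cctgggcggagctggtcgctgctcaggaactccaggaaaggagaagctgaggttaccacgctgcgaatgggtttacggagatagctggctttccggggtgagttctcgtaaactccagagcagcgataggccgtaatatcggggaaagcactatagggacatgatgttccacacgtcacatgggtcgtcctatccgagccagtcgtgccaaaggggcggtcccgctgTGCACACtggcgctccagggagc
Mt2: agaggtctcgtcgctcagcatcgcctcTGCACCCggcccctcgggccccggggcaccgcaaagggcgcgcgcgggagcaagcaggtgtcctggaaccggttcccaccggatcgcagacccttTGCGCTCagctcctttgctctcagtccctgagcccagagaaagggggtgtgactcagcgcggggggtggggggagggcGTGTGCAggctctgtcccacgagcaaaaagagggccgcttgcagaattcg
Within these windows Mt1 held 1 match, from 23 to 17 bases before the start, and Mt2 held 3. Bases outside the windows, including those after the start, were not searched, so these are not counts for the whole promoter. Of the 11338 tested genes with a promoter entry, 29.8% held at least 1 match and 8.17% held 2 or more, so a match alone is common.

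Cd2bp2 (chr7:127191660-127196000, minus strand) encodes a component of the U5 snRNP of the spliceosome. It stood at 114, 123 and 118 CPM in control, 54.9, 57.7 and 50.9 under high glucose, and 66.4, 66.3 and 73.5 with AGEs, with no overlap between control and treated libraries. It fell by 1.12 (SE 0.08) in high glucose and by 0.79 (SE 0.08, adjusted p = 0.00906) with AGEs, and was in the same class in all 9 fits that left out 1 library. The high glucose fall was the larger (log2 difference 0.34 ± 0.08, adjusted p = 0.00731).

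Zfp784 (chr7:5034439-5038446, minus strand), a zinc finger gene, had the largest fall of the 9 genes in both treatments. Its deposited counts were 246, 264 and 232 in control, 17, 9 and 9 under high glucose, and 7, 6 and 0 with AGEs. The log2 fold changes were -4.54 ± 0.63 and -5.87 ± 0.69 (AGEs adjusted p = 0.0161), from treated counts too low to give a firm size. Zfp784 shares its region with Zfp865 on the opposite strand, with 12399 counts against 790, and Zfp865 was not called in either treatment (log2 fold change 0.17 ± 0.30 and -0.74 ± 0.30). The AGEs call was lost when any 1 control library or AGEs library 2 was left out.

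A wider rule was used to describe genes below the strict threshold for AGEs. It asked that the average be called, that each treatment have an unadjusted p under 0.05 in the same direction, and that all 3 libraries of each treatment lie beyond all 3 control libraries, which by itself held for 54.1% of the genes tested in high glucose and 19.2% with AGEs. It held for 587 genes (3.32% of the genes tested), 323 higher (1.83%) and 264 lower (1.49%). Since only 5 and 4 of these were called for AGEs, the AGEs values of the others are given below as measured values. Without control library 1 the rule gave 390 genes and without control library 3 it gave 310, and 179 of the 587 genes were in the class in every fit that left out 1 library.

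Within these 587 genes the high glucose difference was usually the larger. The median log2 fold change of the higher genes was 0.85 in high glucose and 0.44 with AGEs, and that of the lower genes was -0.69 and -0.32. The treatments themselves differed, by the test of AGEs against high glucose (39.9% of all genes tested called), for 138 of the 323 higher and 119 of the 264 lower genes. High glucose was the larger in 137 of the 138 and in all 119. Both treatments reached 2-fold for 57 higher and 9 lower genes, and the like share over all genes tested was not taken. Of the 323 higher genes, 13 had 0 counts in every control library, so the size of their rise is not firm. None of the lower genes did. The median level was 36.8 CPM for the higher and 40.6 CPM for the lower genes, against 14.9 over the genes tested, and 94.4% and 86.7% were protein coding, against 76.2%. These are not independent of the rule, which well-measured genes pass more easily.

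**Figure D2:**
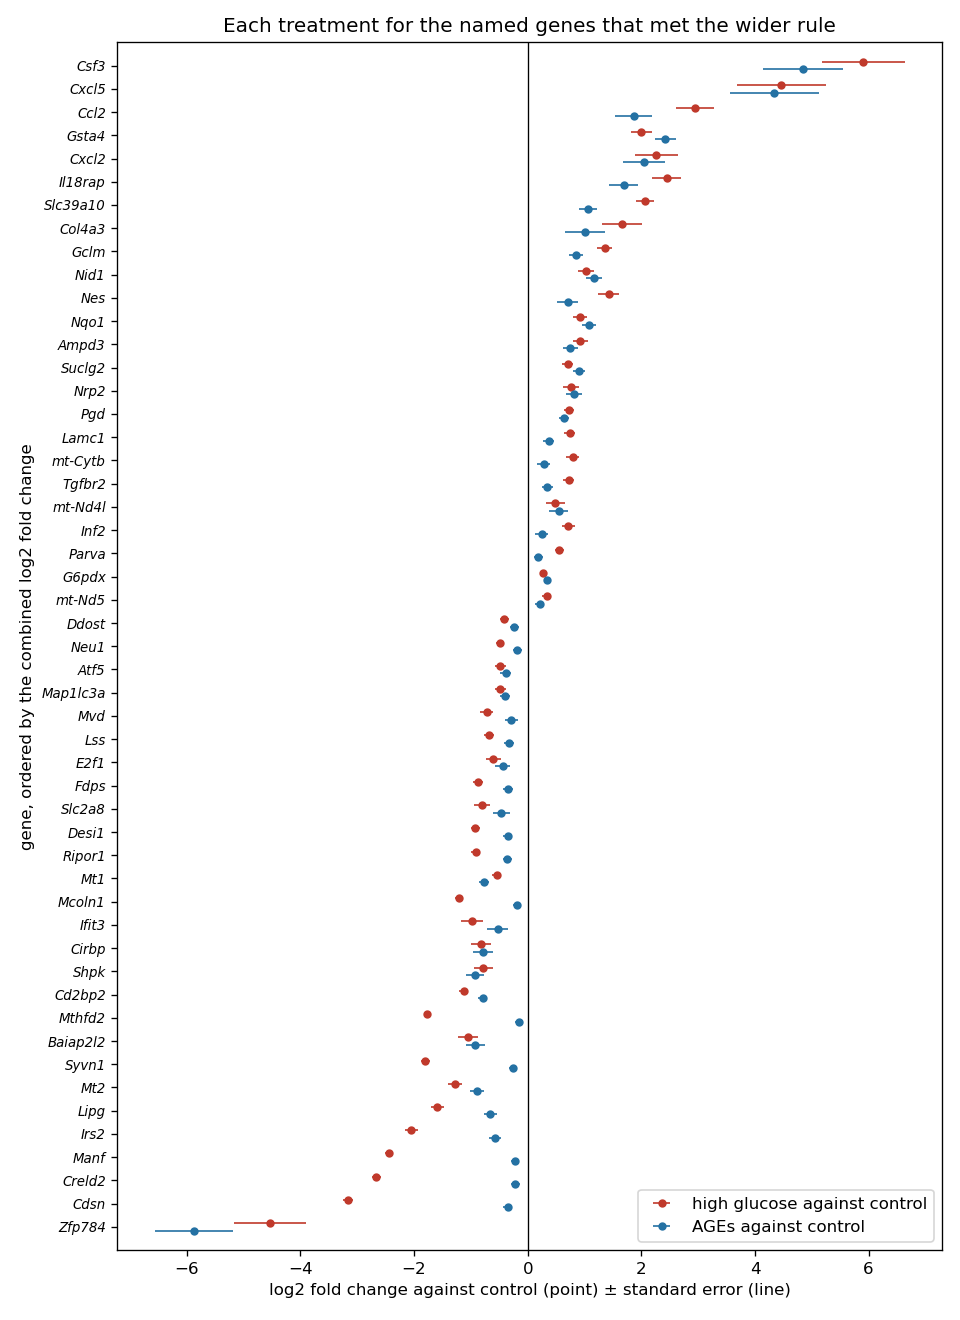
Log2 fold change against control (horizontal axis) for each named gene that met the wider rule (vertical axis, ordered by the average), with high glucose in red and AGEs in blue. Points are edgeR estimates and lines their standard error. Csf3 is at the top with 5.91 and 4.85, Zfp784 at the bottom with -4.54 and -5.87, and Cdsn shows a wide gap between -3.16 and -0.35.

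Antioxidant genes were among the groups with most members in the wider class. Of 32 tested genes in a list of NRF2 targets and antioxidant enzymes, 10 met the wider rule above control and 0 below, against 3.32% of all genes tested in either direction. The median log2 fold change of the list was 0.43 in high glucose and 0.37 with AGEs, against 0.029 and -0.005 over all genes tested. The 10 were Gsta4 and Nqo1, the glutathione-synthesis genes Gclc and Gclm, glutathione reductase Gsr, thioredoxin reductase Txnrd1, the NADPH-producing enzymes G6pdx and Me1, carbonyl reductase Cbr3 and the transferase Gstp1. In high glucose 15 members were called higher and 4 lower, against 19.6% and 19.7% of all genes tested. For AGEs 4 were called higher (Gsta1, Gsta3, Gsta4 and Nqo1) and 0 lower, and 18 had an unadjusted p under 0.05 above control and 0 below, against 12.4% of all genes tested in either direction. DESeq2 called 14 higher and 0 lower for AGEs.

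Gclm, the regulatory subunit of the enzyme that limits glutathione synthesis, measured 68.7, 51.4 and 65.2 CPM in control, 170, 153 and 151 under high glucose, and 97.9, 111 and 125 with AGEs. The AGEs libraries sat between the other groups without overlap. Its log2 fold change was 1.36 ± 0.13 in high glucose and 0.85 ± 0.13 with AGEs (adjusted p = 0.0623), and the treatments differed by -0.50 ± 0.13 (adjusted p = 0.0105). Gclm overlaps Gm17494 on the opposite strand, with 72015 counts against 68348, so its values are uncertain without strand information. Gclc, the catalytic subunit, read 100, 105 and 87.5 CPM in control, 142, 120 and 121 under high glucose, and 146, 137 and 142 with AGEs. The pentose phosphate enzyme G6pdx, which acts before Pgd, read 197, 199 and 210 CPM in control, 258, 241 and 234 under high glucose, and 252, 251 and 268 with AGEs, with log2 fold changes of 0.27 ± 0.07 and 0.35 ± 0.07 (AGEs adjusted p = 0.14).

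The size of the response differed from gene to gene. Cbr3 was at 11.9, 12.9 and 13.9 CPM in control, 55.7, 54.9 and 45.2 under high glucose, and only 15.2, 19.4 and 20.4 with AGEs, a difference between the treatments of -1.505 ± 0.14 (adjusted p = 3.82e-05). Gsr had a like pattern, at 174, 178 and 169 CPM in control, 448, 429 and 413 under high glucose and 197, 208 and 281 with AGEs. Txnrd1 leaned the other way, with 403, 533 and 760 CPM with AGEs against 480, 500 and 482 in high glucose and 366, 364 and 343 in control, and AGEs library 3 stood highest.

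Other antioxidant genes did not follow the shared pattern. Hmox1, heme oxygenase, fell in high glucose (352, 352 and 368 CPM in control, 138, 140 and 128 in high glucose) and read 411, 435 and 556 with AGEs, with log2 fold changes of -1.40 ± 0.11 and 0.39 ± 0.11. Slc7a11, the cystine transporter, had -0.66 ± 0.17 in high glucose and 1.01 ± 0.17 with AGEs, where its adjusted p was 0.117. The treatments differed for both genes, by 1.79 ± 0.11 (adjusted p = 3.85e-06) for Hmox1 and by 1.68 ± 0.17 (adjusted p = 7.3e-05) for Slc7a11.

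Gsta1 and Gsta3, related to Gsta4, rose with AGEs but were not called in high glucose. Gsta1 was at 0.895, 1.38 and 1.12 CPM in control, 0.917, 0.63 and 0.277 under high glucose, and 12.8, 13.3 and 14.9 with AGEs. Gsta3 was at 1.29, 1.51 and 1.24 CPM in control, 1.496, 2.896 and 2.33 under high glucose, and 9.94, 11.1 and 15.5 with AGEs. The AGEs log2 fold changes were 3.59 ± 0.37 (adjusted p = 0.0104) and 3.18 ± 0.28 (adjusted p = 0.00407), and the difference between the treatments passed for both (4.49 ± 0.39 and 2.45 ± 0.27). Gsta1 has a near-identical neighbour, Gsta2, so its reads are uncertain between them. Hmox1, Slc7a11, Gsta1 and Gsta3 were singled out after their values were seen.

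**Figure D3:**
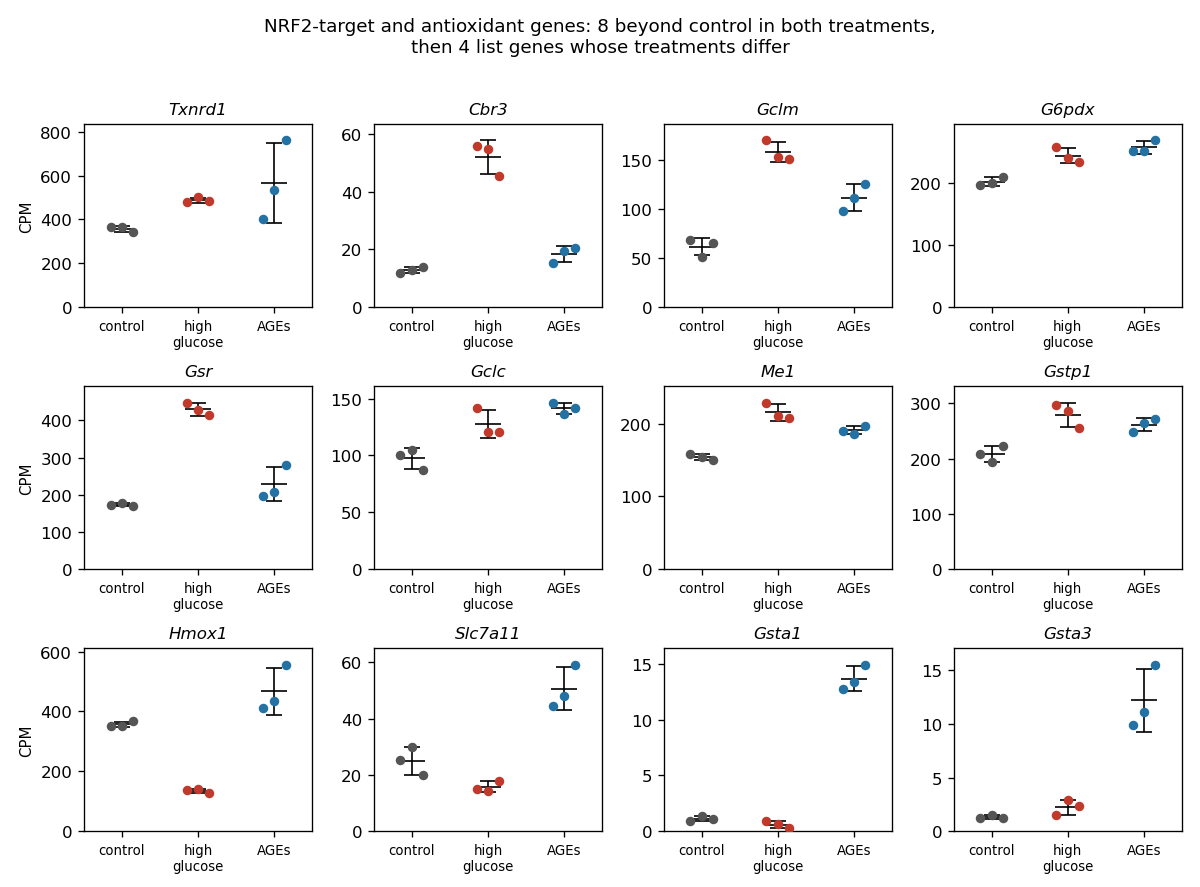
Level in CPM (vertical axis, from 0) of antioxidant genes by group (horizontal axis). Points are libraries, with mean and SD over 3 libraries. The first 8 panels are genes beyond control in both treatments, and the last row shows Hmox1 and Slc7a11, below control in high glucose and above it with AGEs, and Gsta1 and Gsta3, high in the AGEs libraries.

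The promoter of Gclm is shown. By the larger p of its treatments, Gclm came next in the list after Gsta4, which had no promoter entry, and Nqo1, whose window held no match. The window is chr3:122245307-122245556 on the plus strand, 250 bases before the RefSeq start. Capitals mark the only match, on the opposite strand, to the antioxidant response element core TGACNNNGC, the motif NRF2 binds. Such a match was found in 11.8% of the 11338 promoters of tested genes. Of the 5 higher genes of the strict class, 4 had a promoter entry, Nqo1 among them, and 0 of these held such a match. Bases outside the windows were not searched here either.
Gclm: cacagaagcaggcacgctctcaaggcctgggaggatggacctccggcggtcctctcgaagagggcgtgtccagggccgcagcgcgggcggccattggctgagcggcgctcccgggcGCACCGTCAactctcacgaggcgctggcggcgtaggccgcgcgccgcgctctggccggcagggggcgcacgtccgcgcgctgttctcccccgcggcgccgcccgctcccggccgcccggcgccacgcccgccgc

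Inflammatory genes formed the other large group. Of 30 tested genes in a list of NF-kB targets and inflammatory mediators, 12 met the wider rule above control and 0 below, against 1.83% and 1.49% of all genes tested. They were the chemokines Cxcl1, Cxcl2, Cxcl5, Cxcl10, Ccl2 and Ccl20, the growth factor Csf3 (G-CSF), complement C3, the adhesion molecule Vcam1, the receptor Tlr2, and the NF-kB family genes Nfkb1 and Nfkbiz. The list's median log2 fold change was 1.31 in high glucose and 0.61 with AGEs. High glucose called 15 members higher and 4 lower (19.6% and 19.7% over all genes tested). AGEs called 0 in edgeR, where 17 members had an unadjusted p under 0.05 above control and 0 below it (12.4% over all genes in either direction). Limma on either FPKM scale also called 0, while DESeq2 called 10 higher for AGEs, namely C3, Ccl20, Nfkb1, Cxcl5, Cxcl1, Ptgs2, Nfkbiz, Ccl2, Csf3 and Cxcl2.

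Csf3, which drives neutrophil production, was near absent in control, with 8, 4 and 4 counts. High glucose libraries held 475, 232 and 401 counts and AGEs libraries 42, 314 and 150, so AGEs library 1 was far below the other AGEs libraries but still above control. The log2 fold change was 5.91 ± 0.72 in high glucose (adjusted p = 0.000201) and 4.85 ± 0.70 with AGEs (adjusted p = 0.0623).

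The neutrophil chemokines showed the same uneven AGEs group. Cxcl5 was at 3.74, 3.71 and 2.92 CPM in control, 90.3, 66.4 and 72.1 under high glucose, and 16.8, 164 and 30.3 with AGEs. Cxcl1 was at 12.8, 12.7 and 12.6 CPM in control, 72.4, 73.3 and 69.4 under high glucose, and 36.5, 240 and 87.1 with AGEs. AGEs library 2 exceeded every high glucose library for both genes, whereas AGEs library 1 was below all of them.

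Cxcl2 stood at 1.65, 2.09 and 1.56 CPM in control, 9.93, 8.02 and 7.52 under high glucose, and 3.301, 10.97 and 7.647 with AGEs. Ccl20 was at 2.36, 2.31 and 2.73 CPM in control, 10.8, 8.45 and 6.81 under high glucose, and 6.51, 24.1 and 10.9 with AGEs. Their AGEs log2 fold changes were 2.05 ± 0.38 and 2.49 ± 0.43, with adjusted p of 0.14 and 0.117, and that of Cxcl1 was 3.25 ± 0.56 (adjusted p = 0.117). For Cxcl1, Cxcl2, Cxcl5 and Ccl20 the test of AGEs against high glucose did not pass, with log2 differences of 0.76 ± 0.51, -0.22 ± 0.36, -0.12 ± 0.66 and 0.67 ± 0.40.

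For the monocyte chemokine Ccl2 the treatments did differ. It read 41.6, 40.8 and 33.9 CPM in control, 301, 295 and 301 under high glucose, and 64.2, 168 and 192 with AGEs, and the difference was -1.08 ± 0.32 (adjusted p = 0.0226). Vcam1, Tlr2, Cxcl10 and C3 were also higher in high glucose than with AGEs by that test, with log2 differences of AGEs against high glucose from -1.05 (Vcam1) to -0.62 (Tlr2). Nfkb1 read 94.6, 92.7 and 88.5 CPM in control, 141, 149 and 168 under high glucose, and 110, 136 and 168 with AGEs.

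Other members of the list moved apart. Ptgs2, cyclooxygenase 2, had -1.32 in high glucose and 0.65 with AGEs on the log2 scale, and Relb had -0.42 and 0.40. Leukocytes can also make these mediators. Over the 13 leukocyte markers listed, the sum was 80.2 to 87.8 CPM in control, 136 to 152 in high glucose and 79.1 to 94.0 with AGEs. Of the 10 markers tested, 0 met the wider rule, near the 3.32% of all genes tested. The part of leukocytes in the chemokine values was not tested.

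**Figure D4:**
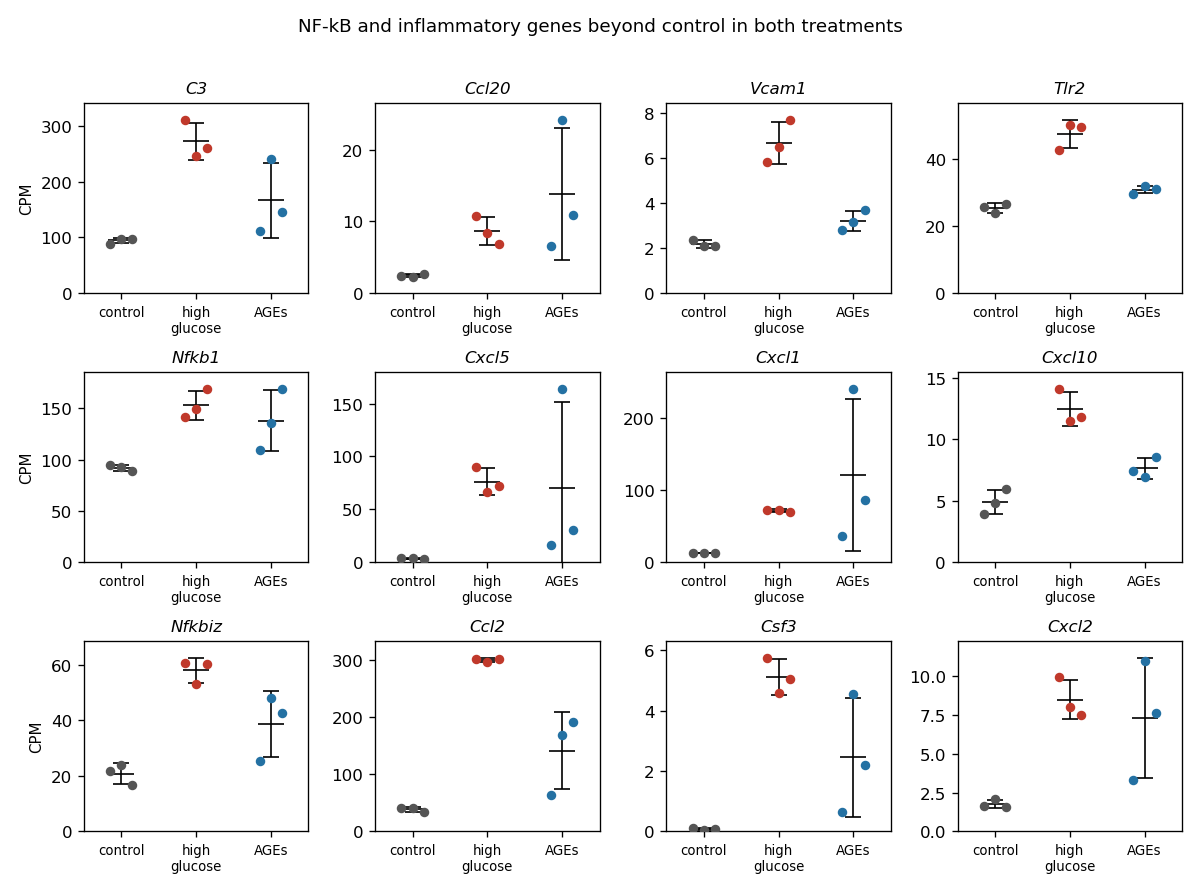
Level in CPM (vertical axis, from 0) of the 12 inflammatory genes beyond control in both treatments, by group (horizontal axis). Points are libraries, with mean and SD over 3 libraries, and a whisker may pass below the axis. AGEs library 2, the middle point, is the highest AGEs value for Cxcl1, Cxcl5, Cxcl2, Ccl20, Csf3, C3 and Nfkbiz.

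The promoters of Cxcl1 and Cxcl2, neighbours on chromosome 5, are shown because both genes were high in the same libraries. The windows are chr5:90890995-90891244 and chr5:90903649-90903898 on the plus strand, and capitals mark matches to the NF-kB consensus on either strand.
Cxcl1: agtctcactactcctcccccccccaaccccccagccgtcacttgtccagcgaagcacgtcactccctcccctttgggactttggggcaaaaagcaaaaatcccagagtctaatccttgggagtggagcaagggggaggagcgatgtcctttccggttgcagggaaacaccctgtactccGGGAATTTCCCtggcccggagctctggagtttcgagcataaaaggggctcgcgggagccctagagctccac
Cxcl2: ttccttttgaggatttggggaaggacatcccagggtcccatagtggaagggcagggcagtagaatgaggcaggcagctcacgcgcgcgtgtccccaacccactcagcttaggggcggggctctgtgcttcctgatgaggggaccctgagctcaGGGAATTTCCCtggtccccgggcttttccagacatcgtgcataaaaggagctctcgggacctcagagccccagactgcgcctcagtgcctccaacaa
Each held 2 overlapping matches that make up 1 run of letters, from 71 to 61 bases before the start in Cxcl1 and from 97 to 87 in Cxcl2. A match to this consensus was found in 8.75% of the 11338 promoters. Of the 12 inflammatory genes only 6 had a promoter entry, as did 236 of the 323 higher and 184 of the 264 lower genes, so no share over the members is given.

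Matrix genes were a smaller group. Of 40 tested extracellular matrix and TGF-beta genes, 6 met the wider rule above control (1.83% of all genes tested) and 0 below it (1.49%): the collagen IV chains Col4a2 and Col4a3, the laminin chain Lamc1, the cross-linking enzyme Lox, the receptor Tgfbr2 and its feedback regulator Skil. With Nid1, outside the list, Lamc1 and the collagen IV chains are parts of basement membrane. Lamc1 read 129, 139 and 134 CPM in control, 218, 207 and 245 under high glucose, and 170, 156 and 192 with AGEs. Tgfbr2 read 159, 177 and 164 CPM in control, 290, 264 and 272 under high glucose, and 188, 206 and 240 with AGEs. For both genes high glucose was the higher by the direct test (adjusted p = 0.0111 and 0.00999).

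Col4a3, a collagen chain of the mature glomerular basement membrane, varied most. It was at 6.96, 6.26 and 6.55 CPM in control, 9.95, 24.4 and 28.0 under high glucose, and 14.1, 9.20 and 16.6 with AGEs, and it left the class when any 1 control library or AGEs library 3 was left out. The number of matrix genes in the class fell to 2 without control library 3, to 4 without control library 1, and to 3 without AGEs library 3. Limma on log2(FPKM + 1) also gave 2.

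Mitochondrially encoded genes had 4 of 13 members in the wider class (3.32% of all genes tested, 1.83% higher). These were mt-Nd1, mt-Nd4l, mt-Nd5 and mt-Cytb, all of them above control and all but mt-Cytb subunits of complex I. For mt-Cytb the libraries read 2058, 2009 and 1758 CPM in control, 3848, 3191 and 3068 under high glucose, and 2158, 2221 and 2690 with AGEs. The count was 0 without control library 3 and 0 with limma on either FPKM scale, 1 without control library 1, and 2 without control library 2, high glucose library 2 or AGEs library 3. The share of all counts on mitochondrial genes was 2.68% to 2.93% in control, 3.26% to 4.11% in high glucose and 2.96% to 3.30% with AGEs.

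Genes lower in both treatments formed smaller groups, in which AGEs differences were slight. Of 25 tested genes of endoplasmic reticulum stress and the unfolded protein response, 22 were called lower in high glucose (19.7% of all genes tested), and Syvn1, Manf and Creld2 met the wider rule (1.49% lower over all genes). With AGEs, 4 members had an unadjusted p under 0.05 below control and 3 above it, namely Hspa5, Atf6 and Xbp1, which were called lower in high glucose. Manf, a secreted ER stress protein, read 1209, 1109 and 1265 CPM in control, 228, 226 and 208 under high glucose, and 982.7, 1072 and 1021 with AGEs. The log2 fold change was -2.44 ± 0.07 in high glucose and -0.22 ± 0.07 with AGEs (adjusted p = 0.315). Creld2 had -2.66 ± 0.08 and -0.22 ± 0.07, and left the class without control library 3 or AGEs library 1, and Syvn1, an ER ubiquitin ligase, had -1.80 ± 0.07 and -0.26 ± 0.07. Syvn1 overlaps Mrpl49 on the opposite strand, with 75843 counts against 139933.

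Cholesterol synthesis had 3 of 25 tested members in the lower class (1.49% of all genes tested), Fdps, Lss and Mvd. Fdps, farnesyl diphosphate synthase, read 861, 820 and 871 CPM in control, 490, 478 and 425 under high glucose, and 605, 669 and 740 with AGEs. Lss, lanosterol synthase, read 288, 301 and 302 CPM in control, 182, 176 and 197 under high glucose, and 271, 213 and 225 with AGEs. Mvd left the class without control library 3, AGEs library 1 or AGEs library 3. Of the list's members 6 had an unadjusted p under 0.05 below control with AGEs and 0 above, against 12.4% of all genes in either direction. High glucose called 6 higher and 9 lower, against 19.6% and 19.7% of all genes, so the higher share was near that background.

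Autophagy and lysosome genes had 3 of 35 tested members in the lower class (1.49% of all genes tested): Map1lc3a, an LC3 protein of the autophagosome, the lysosomal channel Mcoln1 and the sialidase Neu1. Map1lc3a was at 71.7, 64.0 and 74.2 CPM in control, 50.3, 54.5 and 45.7 under high glucose, and 52.3, 55.5 and 51.3 with AGEs, and the treatments were close (log2 difference 0.08 ± 0.09). Mcoln1 left the class without control library 2 or 3 or AGEs library 3. Neu1 left it without control library 3, high glucose library 2 or any 1 AGEs library, and the list's count was 1 without control library 3 and 1 without AGEs library 3, and 2 without control library 2, high glucose library 2 or AGEs library 1.

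Irs2, the insulin receptor substrate that carries insulin signals to PI3-kinase, was below control in both treatments, at 121, 128 and 134 CPM in control, 34.2, 28.0 and 30.7 under high glucose, and 96.8, 86.0 and 75.7 with AGEs. The log2 fold changes were -2.04 ± 0.11 and -0.57 ± 0.11 (AGEs adjusted p = 0.142). Lipg, endothelial lipase, had 33.2, 39.7 and 34.4 CPM in control, 12.8, 10.8 and 12.0 under high glucose, and 22.1, 21.0 and 24.9 with AGEs. Cdsn, corneodesmosin, had -3.16 ± 0.09 in high glucose against -0.35 ± 0.08 with AGEs.

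Several lower genes had values of like size in both treatments. Shpk, a sedoheptulose kinase that feeds the pentose phosphate pathway, read 6.88, 6.99 and 7.02 CPM in control, 4.02, 4.26 and 3.90 under high glucose, and 4.28, 3.77 and 2.94 with AGEs. Cirbp, the cold-inducible RNA-binding protein, read 45.8, 49.6 and 61.7 CPM in control, 27.9, 35.1 and 26.5 under high glucose, and 33.7, 34.0 and 23.8 with AGEs. Baiap2l2, which binds curved membranes, had log2 fold changes of -1.05 ± 0.17 and -0.92 ± 0.17. The log2 difference between the treatments was -0.15 ± 0.16 for Shpk, 0.03 ± 0.17 for Cirbp and 0.13 ± 0.17 for Baiap2l2, and passed for none.

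Atf5, a stress transcription factor, had -0.48 ± 0.09 and -0.39 ± 0.09, with a difference of 0.09 ± 0.09. It overlaps Nup62 on the opposite strand, with 45444 counts against 74143. Ripor1, a RhoA-binding protein, had -0.92 ± 0.07 and -0.36 ± 0.07. Desi1, a SUMO protease, had -0.92 ± 0.07 and -0.35 ± 0.07 and overlaps Xrcc6 on the opposite strand, with 66305 counts against 79960.

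Among the higher genes outside the lists, Slc39a10, a zinc importer of the cell membrane, stood out beside the lower metallothioneins. It read 7.82, 8.70 and 6.79 CPM in control, 30.0, 30.1 and 37.1 under high glucose, and 15.8, 13.9 and 19.0 with AGEs, with no overlap among the 3 groups. The log2 fold change was 2.06 ± 0.16 in high glucose and 1.06 ± 0.16 with AGEs (adjusted p = 0.0623), and high glucose was the higher (difference -0.997 ± 0.15, adjusted p = 0.000756).

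Il18rap, an accessory chain of the interleukin-18 receptor, read 1.77, 0.93 and 1.14 CPM in control, 5.92, 7.76 and 7.33 under high glucose, and 4.48, 4.26 and 3.64 with AGEs. Nrp2, a semaphorin and VEGF receptor, read 55.3, 50.6 and 56.2 CPM in control, 85.1, 85.1 and 103 under high glucose, and 85.2, 82.8 and 116 with AGEs, and its log2 fold changes, 0.76 ± 0.14 and 0.81 ± 0.14, were within their errors of each other. Ampd3, AMP deaminase, had 0.92 ± 0.13 and 0.75 ± 0.13 and overlaps Rnf141 on the opposite strand, with 31383 counts against 18980.

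Podocyte markers had 2 of 27 tested members in the shared class (7.41%), which with so few genes is near the 3.32% of all genes tested. The count was 1 with DESeq2, with limma on either FPKM scale and with the replicate block. Of 27 tested, Nes and Inf2 met the wider rule above control (1.83% of all genes tested), and Inf2, with an AGEs log2 fold change of 0.24 ± 0.11, was in the class under only 4 of 17 alternatives. Nes, the intermediate filament nestin, read 98.6, 88.5 and 84.6 CPM in control, 208, 247 and 276 under high glucose, and 130, 118 and 195 with AGEs. Synpo, the actin-associated synaptopodin, rose in high glucose and lay below control with AGEs, at 22.03, 25.01 and 20.15 CPM in control, 73.2, 54.6 and 32.4 under high glucose, and 8.53, 7.75 and 5.45 with AGEs. The 2 treatments differed by -2.88 ± 0.29 (adjusted p = 6.33e-05) and the average was not called (-0.19 ± 0.23).

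Nphs1, nephrin, was so variable within groups, from 5.67 to 47.5 CPM in control, 3.53 to 34.3 in high glucose and 6.98 to 102 with AGEs, that no direction could be given. Podxl, podocalyxin, had 0.10 ± 0.13 in high glucose and 0.56 ± 0.13 with AGEs (adjusted p = 0.233). Of the 38 podocyte markers listed, 6 had 0 counts in all libraries, among them Lmx1b, a podocyte-defining transcription factor.

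Of the genes tied to each stimulus, Ager, Lgals3 and Arrdc4 were not in the shared class. Ager, the AGE receptor, was low throughout, at 1.05, 0.494 and 0.268 CPM in control, 3.82, 2.36 and 1.44 under high glucose, and 0.856, 0.724 and 0.947 with AGEs. Lgals3, galectin 3, which also binds AGEs, had -1.46 ± 0.09 in high glucose and -0.13 ± 0.09 with AGEs. Arrdc4, a glucose-induced arrestin like Txnip, had 1.44 ± 0.21 and -0.47 ± 0.21. Of 17 tested AGE receptor and glyoxal detoxification genes only Ddost was in the class, with -0.41 ± 0.08 and -0.24 ± 0.08, and of 28 tested genes of glucose transport and glycolysis, G6pdx met the rule above and the transporter Slc2a8 below control, against 3.32% of all genes tested in the class.

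The remaining lists had at most 1 member in the shared class, near the 3.32% of all genes tested. These were Parva of the actin and focal adhesion list, above control, and below it Mthfd2 of the ATF4 targets, Ifit3 of the interferon-stimulated genes and E2f1 of the cell cycle genes. Each left the class in fits without 1 library: Parva without control library 1 or 3, high glucose library 2 or AGEs library 3, Mthfd2 without control library 1 or AGEs library 1 or 2, Ifit3 without control library 2 or AGEs library 2, and E2f1 without control library 3. Aminoacyl-tRNA synthetases, p53 targets, fatty acid oxidation, immediate-early genes, nuclear transcripts, and markers of parietal, tubular, endothelial, mesangial and leukocyte cells had 0 members in it. These lists had only 5 to 31 genes tested, so 0 members is also near the share over all genes.

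**Figure D5:**
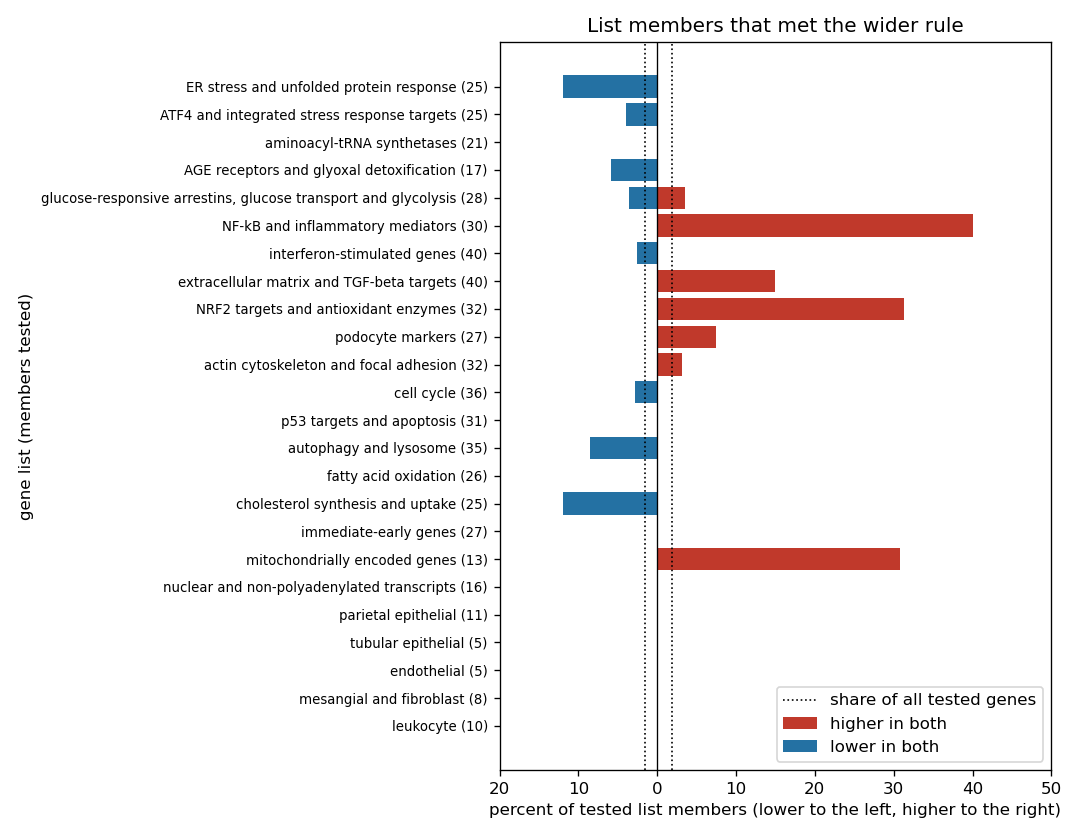
Share of the tested members of each gene list (vertical axis, number tested in brackets) that met the wider rule, in percent (horizontal axis), with higher genes to the right in red and lower genes to the left in blue. Dotted lines mark the shares over all genes tested, 1.83% higher and 1.49% lower. The inflammatory, antioxidant and mitochondrial lists have the longest bars, and the mitochondrial bar is 4 of 13 genes.

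The libraries held from 46284878 to 77242281 counts. The first principal component (57.4% of the variance) set the high glucose libraries, at 59.1 to 59.9, apart from all others, at -35.0 to -24.0, and on the second (9.43%) control lay from 5.6 to 31.5 and AGEs from -27.5 to -3.5. Tubular epithelial markers summed to 202.5 to 216.2 CPM in control, 668.4 to 801.1 in high glucose and 177.7 to 283.2 with AGEs, and parietal epithelial markers to 1091 to 1136, 2014 to 2239 and 1049 to 1279. The part of such marker shifts in the high glucose values was not tested, and in bulk libraries fewer cells of a type and less RNA per cell cannot be told apart.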

How the data were processed

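The authors deposited 1 table of raw read counts and FPKM values (scaled to gene length and library size) for each gene and library, per the file headers. Cutadapt 1.9, FastQC and GRCm38 are named in the submitters' processing notes. The aligner, counting tool, annotation and strandedness were not given in the sources used here. From the deposited counts, edgeR 4.0.16 in R 4.3.3 was run with TMM scaling and filterByExpr (17680 of 55385 genes kept). All 9 libraries entered 1 fit with 3 group means, tested with glmQLFit and glmQLFTest, two-sided, with Benjamini-Hochberg adjustment over all genes tested. The average contrast weighted each treatment 0.5. Standard errors are the log2 fold change over the square root of F. The code was run on simulated counts with the same spread for every gene, smaller than the common spread in these data. That run does not show how often the rules err in these data. FPKM was used only in limma 3.58.1 alternatives, with pseudocounts of 1 and 0.1, and in choosing some of the named genes, as given below. Other alternatives were DESeq2 1.42.0, other scalings and filters, a replicate block and leaving out each library.

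The members, the 24 gene lists and the rules were chosen with earlier results of these data known. Named genes were all strict members, and the 14 higher and 14 lower wider members with the smallest larger p of both treatments. The 14 and 14 were taken among genes with a mean FPKM of at least 1 in some group. Predicted-gene, Rik, pseudogene, clone and microRNA symbols were passed over there. Up to 3 wider members per list in the same order were added, and Txnip, Arrdc4, Ager, Lgals3, Ddit3, Nphs1, Synpo and Podxl. Others named were chosen after their values were seen. Promoters came from RefSeq (GRCm38.p6), matched by symbol, chromosome and strand, nearest the deposited gene start.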

Additional observations from a re-analysis of the deposited data

How the results depend on the processing

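With DESeq2, AGEs against control gave 325 calls and the strict class 137 genes. With the 6 treated libraries as 1 group, the average gave 1 call. An unadjusted p under 0.01 in place of 0.05 left 190 genes in the wider class. Leaving out each library in turn gave 1988 to 3445 calls for the average, 5737 to 7308 for high glucose and 10 to 21 for AGEs. In the same fits AGEs against high glucose had 5975 to 7134 calls, the strict class 7 to 14 genes and the wider class 310 to 758. Some calls of the average lacked an unadjusted p under 0.05 in the same direction in both treatments. They numbered 1587 to 2942 (1587, 1821 and 1905 without control library 1, 2 and 3). Same-numbered libraries did not deviate together over all genes tested (r from -0.133 to 0.087). Such a correlation cannot show a link limited to some genes, and the labels do not say what the numbers share. With a replicate block the average gave 2755 calls, high glucose 6322, AGEs 5, AGEs against high glucose 6390, the strict class 1 gene (Gsta4) and the wider class 398.

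Scaling moved the split of directions. With library totals only, the average had 2388 higher and 1286 lower calls, high glucose 4808 and 2287, and AGEs against high glucose 2251 and 5101. Limma on log2(FPKM + 1) gave 2706 and 1363, 5237 and 2400, and 2314 and 5509, and on log2(FPKM + 0.1) it gave 2537 and 1343, 5121 and 2426, and 2341 and 5433. The median high glucose log2 fold change of all genes was 0.209 with totals only and 0.171 with FPKM + 0.1, against 0.029. Sign changes were limited to values that were not called. Synpo on average had 0.081 with limma on log2(FPKM + 1) and 0.437 with 1 treated group. Nphs1 on average had -0.268 with the replicate block and from -0.527 to 1.685 without 1 library, and in high glucose from -2.499 to 0.637 without 1 library. Ddit3 with AGEs had -0.005 on both FPKM scales and from -0.071 to 0.076 without 1 library. The causes were not tested.

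Strict membership held in all 17 alternatives for Gsta4, 16 for Cd2bp2, 15 for Mt1 and Suclg2, 13 for Nqo1, 12 for Zfp784, 10 for Nid1, 9 for Pgd and 7 for Mt2, and all 9 genes were in the wider class in all 17. Counts of inflammatory genes in the wider class ran from 11 to 13 and of antioxidant genes from 9 to 12. With 3 libraries a group, sizes of change are imprecise, more so at the low counts of Zfp784, Csf3, Nanp, Gsta1, Gsta2 and Ager.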

Other observations

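The remaining genes called for AGEs were not called in the same direction under high glucose, and these genes were singled out after their values were seen. Nanp, a phosphatase of sialic acid synthesis, had 383, 630 and 472 counts in control, 691, 408 and 781 under high glucose, and 0 in all 3 AGEs libraries (AGEs adjusted p = 0.000222 in edgeR). Dleu2, a long noncoding RNA, was at 15.7, 15.2 and 11.4 CPM in control, 22.7, 17.5 and 21.6 under high glucose, and 1.99, 2.88 and 2.11 with AGEs, so that it rose in high glucose (0.55 ± 0.18, adjusted p = 0.0403) and fell with AGEs (-2.60 ± 0.20, adjusted p = 0.0015). Fgfr1op, a centrosome gene, was at 21.4, 23.9 and 19.6 CPM in control, 20.4, 17.7 and 18.6 under high glucose, and 63.3, 53.9 and 44.8 with AGEs. Eps8, an actin-capping protein gene, was at 15.97, 18.63 and 17.45 CPM in control, 17.7, 14.7 and 16.5 under high glucose, and 29.9, 30.0 and 29.1 with AGEs.

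Other zinc genes, looked at because Mt1 and Mt2 fell while Slc39a10 was above control in both treatments, did not share that pattern. Mtf1, the zinc sensor, had log2 fold changes of 0.05 ± 0.11 in high glucose and 0.08 ± 0.11 with AGEs. Slc30a1, the zinc exporter of the cell membrane, had 0.01 ± 0.13 and -0.37 ± 0.13, with an AGEs adjusted p of 0.334. Slc39a14, another importer, fell in high glucose (-1.14 ± 0.10, adjusted p = 3.74e-05) and had 0.06 ± 0.10 with AGEs.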
